A study of Mus musculus with 7 samples.

Results

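Spectrins, ankyrins and the giant linker proteins of the cytoskeleton were followed in ribosome-bound RNA of adult mouse retinas after treatment with an antibody to the Notch ligand Dll4. The set holds 9 genes of the 12756 in the deposited table, chosen by gene symbol with earlier results of the same comparison known: Sptan1, Sptbn1, Macf1, Dst, Ank2, Ank3, Epb41l2, Epb41l3 and Map1b. All 9 were in the table and all 9 passed the filter on low values. The choice used the difference between anti-Dll4 and control IgG libraries, so the levels of these 9 genes are given as a description, with no test.

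The 4 anti-Dll4 libraries and the 3 control IgG libraries come from retinas of adult C57BL/6 mice with the genotype Cdh5-CreERT2 Rpl22 tm1.1Psam, which both groups share. In these mice a Cre recombinase that tamoxifen activates, driven by the promoter of the endothelial cadherin gene Cdh5, is meant to tag the ribosomal protein Rpl22 in endothelial cells. Ribosomes were pulled down through the HA tag, and the bound RNA was sequenced by QuantSeq, a method that reads polyadenylated RNA at its 3′ end. Whether the libraries come from separate animals is not stated in the labels, so a p-value here reflects spread among libraries that may be technical.

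A spectrin tetramer of alpha and beta chains links short actin filaments into a network under the plasma membrane. Ankyrins tie that network to ion channels, pumps and adhesion molecules, and band 4.1 proteins strengthen the junction of spectrin with actin. Spectraplakins are giant proteins that bind both actin and microtubules, and Map1b binds microtubules in growing and mature neurons. Mouse rods and ganglion cells use these proteins, as endothelial cells do: ankyrin-G is needed to bring a rod channel to the outer segment and marks the initial segment of ganglion cell axons.

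The promoters of Sptan1, Sptbn1 and Macf1 are shown, since the results below turn on these 3 members and the windows differ in composition. The RefSeq windows on GRCm38.p6 run from 250 bases before to 50 bases after a transcription start. The windows are chr2:29965310-29965609 on the plus strand for Sptan1, chr11:30198208-30198507 on the minus strand for Sptbn1 (the window with more CpG of its pair), and chr4:123684311-123684610 on the minus strand for Macf1. Capitals mark TGGGAA, the core that the Notch effector Rbpj binds, and GGGCGG, the GC box, each searched on both strands.
Sptan1: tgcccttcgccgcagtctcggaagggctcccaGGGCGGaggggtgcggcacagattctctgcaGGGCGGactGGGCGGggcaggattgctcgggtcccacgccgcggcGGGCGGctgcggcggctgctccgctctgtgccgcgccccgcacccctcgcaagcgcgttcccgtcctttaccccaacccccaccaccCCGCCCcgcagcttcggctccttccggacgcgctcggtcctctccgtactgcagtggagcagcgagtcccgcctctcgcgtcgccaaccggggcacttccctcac
Sptbn1: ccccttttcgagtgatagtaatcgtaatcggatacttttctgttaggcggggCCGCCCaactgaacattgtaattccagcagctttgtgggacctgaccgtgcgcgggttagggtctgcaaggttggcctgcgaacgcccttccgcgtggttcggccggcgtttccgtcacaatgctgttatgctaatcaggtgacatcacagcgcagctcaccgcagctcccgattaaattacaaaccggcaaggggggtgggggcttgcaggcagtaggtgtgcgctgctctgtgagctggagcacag
Macf1: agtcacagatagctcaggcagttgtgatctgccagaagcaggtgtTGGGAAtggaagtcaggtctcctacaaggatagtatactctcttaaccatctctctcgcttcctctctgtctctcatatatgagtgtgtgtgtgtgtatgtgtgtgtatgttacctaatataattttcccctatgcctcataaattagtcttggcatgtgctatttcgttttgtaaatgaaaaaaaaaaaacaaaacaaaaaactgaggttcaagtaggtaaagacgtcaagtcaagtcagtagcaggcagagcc
The Sptan1 window had 37 CpG and 5 matches to GGGCGG, the Sptbn1 window 21 CpG and 1 match to GGGCGG, and the Macf1 window 3 CpG and 1 match to TGGGAA. The median window of the 32851 in the table had 7 CpG. In all, 8 of the 9 members had a window (15 windows). TGGGAA was in 4 of these 15 windows (26.7%), in Macf1, Dst, Ank2 and Epb41l2, against 25.6% of all windows, and GGGCGG in 6 of 15 (40.0%), against 35.7%. A match describes the letters and is not a binding site.

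The libraries held 1356192 to 1771086 reads over the listed genes, and a level is given as CPM, the reads of a gene scaled to 1000000 reads over the listed genes. A log2 change is the difference of mean log2(CPM + 1), anti-Dll4 minus control IgG, with its limma standard error. Of 10899 genes tested, 13 passed an adjusted p under 0.05 in limma with Benjamini-Hochberg adjustment (0.119%), and all 13 were higher in anti-Dll4 libraries. The pulled-down RNA was not endothelial alone. The 19 endothelial markers, Pecam1, Cdh5 and Cldn5 among them, made up 0.440% to 0.574% of the CPM in anti-Dll4 libraries and 0.211% to 0.319% in control libraries, and the 16 rod markers 1.37% to 2.53% in anti-Dll4 libraries and 2.81% to 2.99% in control libraries. For neither list did the groups overlap. Among other neurons, bipolar and ganglion cell markers were lower in mean level as well. Cone and amacrine cell markers were lower by 0.30 and 0.62 log2 units, with groups that overlap. The 1 tested horizontal cell marker was higher by 0.89, also with overlap. The 10 bipolar cell markers had a mean log2(CPM + 1) of 5.34 to 6.47 in anti-Dll4 libraries and 6.66 to 6.84 in control libraries, without overlap, while their summed share, 0.179% to 0.252% of the CPM in anti-Dll4 and 0.211% to 0.266% in control libraries, overlapped. For ganglion cell markers the mean log2(CPM + 1) was 2.55 to 3.36 in anti-Dll4 and 3.29 to 4.12 in control libraries, and the summed share ran the other way, averaging 0.0301% in anti-Dll4 and 0.0278% in control libraries. The part of bipolar and ganglion cell RNA in the results below was not tested. The 7 libraries carry pulled-down bulk RNA, in which fewer cells of a type and less RNA per cell cannot be told apart.

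Together the 9 members took 1.03% ± 0.147 (SD, n = 4) of the CPM in anti-Dll4 libraries and 1.57% ± 0.304 (SD, n = 3) in control libraries. Their share was 1.20%, 1.09%, 0.888% and 0.926% in anti-Dll4 libraries 1 to 4, against 1.40%, 1.39% and 1.92% in control IgG libraries 1, 3 and 4. Each anti-Dll4 library lay below each control library, and the lowest share was that of anti-Dll4 3, the library with the fewest rod marker CPM. All 9 log2 changes were below 0, from -1.51 to -0.013, with a median of -0.57. The directions of 3 members, Epb41l2, Epb41l3 and Map1b, changed under other scalings, models or left-out libraries, and that of Ank3 under a replicate block. Over all genes tested, 54.5% had a change below 0, with a median of -0.14. In limma 0 of the 9 members passed the threshold, beside 0.119% of all genes tested, and voom on the whole reads called 1 of the 9, Macf1, beside 0.349% of all genes tested (38 genes, of which 24, or 0.22%, were lower). The comparison had chosen the members, so nothing is read from these counts or from the order of the groups in the summed share.

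**Figure D1:**
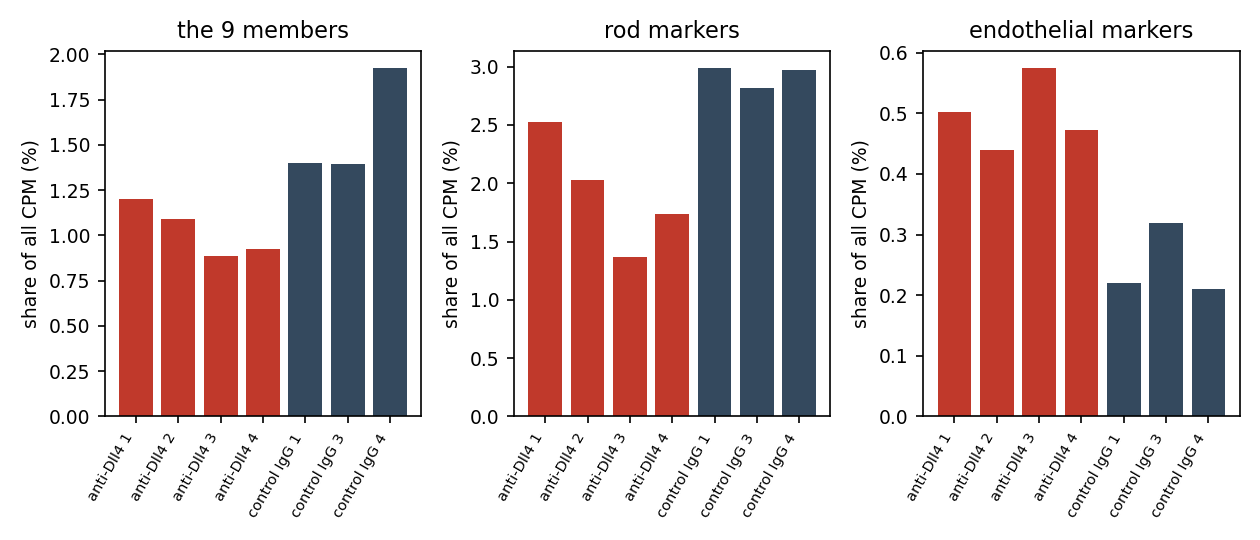
Bars give the share of all CPM (%, axis from 0) that the 9 members, the 16 rod markers and the 19 endothelial markers took in each of the 4 anti-Dll4 libraries (red) and 3 control IgG libraries (dark). The members take 0.888% to 1.20% in anti-Dll4 libraries and 1.39% to 1.92% in control libraries, the rod markers follow the same order of groups and the endothelial markers the opposite order.

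Of the 7 members with at least 100 reads in every library, the spectrins had the largest differences over all 7 libraries, an order that did not hold for Sptbn1 without anti-Dll4 3, anti-Dll4 4 or control IgG 4, or for either spectrin with the rod marker covariate. Sptan1 encodes the non-erythroid alpha chain, alpha-II spectrin. It stood at 2842, 2036, 492 and 1569 CPM in anti-Dll4 libraries 1 to 4, against 2395, 3413 and 7294 CPM in control IgG libraries 1, 3 and 4. The groups overlap, because anti-Dll4 1 lay above control IgG 1, and the ends of the range were anti-Dll4 3 and control IgG 4. The means were 1735 ± 981 CPM (SD, n = 4) in anti-Dll4 and 4367 ± 2585 CPM (SD, n = 3) in control libraries, a log2 change of -1.43 ± 0.42 (SE). It was -0.91 without anti-Dll4 3, -0.98 without control IgG 4 and -1.78 without control IgG 1.

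Sptbn1 encodes beta-II spectrin, the usual partner of that alpha chain outside red cells. It had 1984, 1845, 819 and 1242 CPM in anti-Dll4 libraries, against 1680.1, 2653 and 3172 CPM in control libraries. As with Sptan1, the lowest library was anti-Dll4 3 and the highest control IgG 4, and anti-Dll4 1 and 2 lay above control IgG 1. The log2 change was -0.80 ± 0.30 (SE), with means of 1472 ± 542 CPM (SD, n = 4) in anti-Dll4 and 2502 ± 757 CPM (SD, n = 3) in control libraries. It was -0.55 without anti-Dll4 3 and -0.60 without control IgG 4, where Macf1 (described below) stood at -0.71 and -0.67.

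Both spectrins were lowest in anti-Dll4 3, the library with the smallest rod marker share. The part of rod RNA in their levels was not tested. Over the 7 libraries, which share the treatment group, Sptan1 had a Pearson r of 0.87 with the rod marker mean. It was 0.76 with the bipolar and 0.82 with the ganglion cell marker mean. For Sptbn1 the values were 0.84 with rod, 0.82 with bipolar and 0.90 with ganglion cell markers. The rod marker mean log2(CPM + 1) was 8.69 to 9.69 in anti-Dll4 and 9.87 to 10.03 in control libraries, without overlap. A fit with it as a covariate therefore cannot tell rod RNA from the treatment. When the rod marker mean entered the fit, the log2 change was -0.18 ± 0.44 for Sptan1 and -0.16 ± 0.35 for Sptbn1 (SE), against -1.43 and -0.80 without it. With libraries rescaled on the endothelial markers, the changes were -2.44 and -1.81, while that scaling shifted the median of all genes as well (by -0.87). Between the 7 libraries the reads of Sptan1 ran from 869 to 11192, and counting error alone would give an SD of about 0.022 log2 units, against 1.10 between anti-Dll4 and 0.82 between control libraries.

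Macf1 encodes microtubule-actin crosslinking factor, a spectraplakin that guides microtubules along actin. Its levels were 2809.7, 2165, 2572 and 1786 CPM in anti-Dll4 libraries, against 3874, 3465 and 3542 CPM in control libraries. Macf1 was the member whose groups did not overlap: its highest anti-Dll4 library lay below its lowest control library. That count of 1 of 9 stands beside 3.75% of all genes tested (409 genes) with each anti-Dll4 library below each control library. The means were 2333 ± 452 CPM (SD, n = 4) in anti-Dll4 and 3627 ± 217 CPM (SD, n = 3) in control libraries, and the log2 change was -0.66 ± 0.21 (SE). With the rod marker covariate, which has the limit given above, the change of Macf1 was -0.70 ± 0.27 (SE), about as large as without it. No fit was made with the bipolar or ganglion cell markers, which were also lower in mean level. Over the 7 libraries the Pearson r of Macf1 was 0.54 with the rod, 0.81 with the bipolar and 0.79 with the ganglion cell marker mean. The change of Macf1 ran from -0.75 to -0.53 with a library left out in turn. No test compared Macf1 with the spectrins.

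Dst encodes dystonin, the other spectraplakin, which has muscle, neuronal and epithelial forms. It had 380.3, 600.0, 625 and 953 CPM in anti-Dll4 libraries, against 968, 929.8 and 816 CPM in control libraries. The 3 lower anti-Dll4 libraries lay under each control library, and anti-Dll4 4 lay among them. The log2 change was -0.57 ± 0.33 (SE), and it was -0.35 without anti-Dll4 1 and -0.79 without anti-Dll4 4. The control libraries were close together, with an SD of 0.13 log2 units, against 0.54 between anti-Dll4 libraries.

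**Figure D2:**
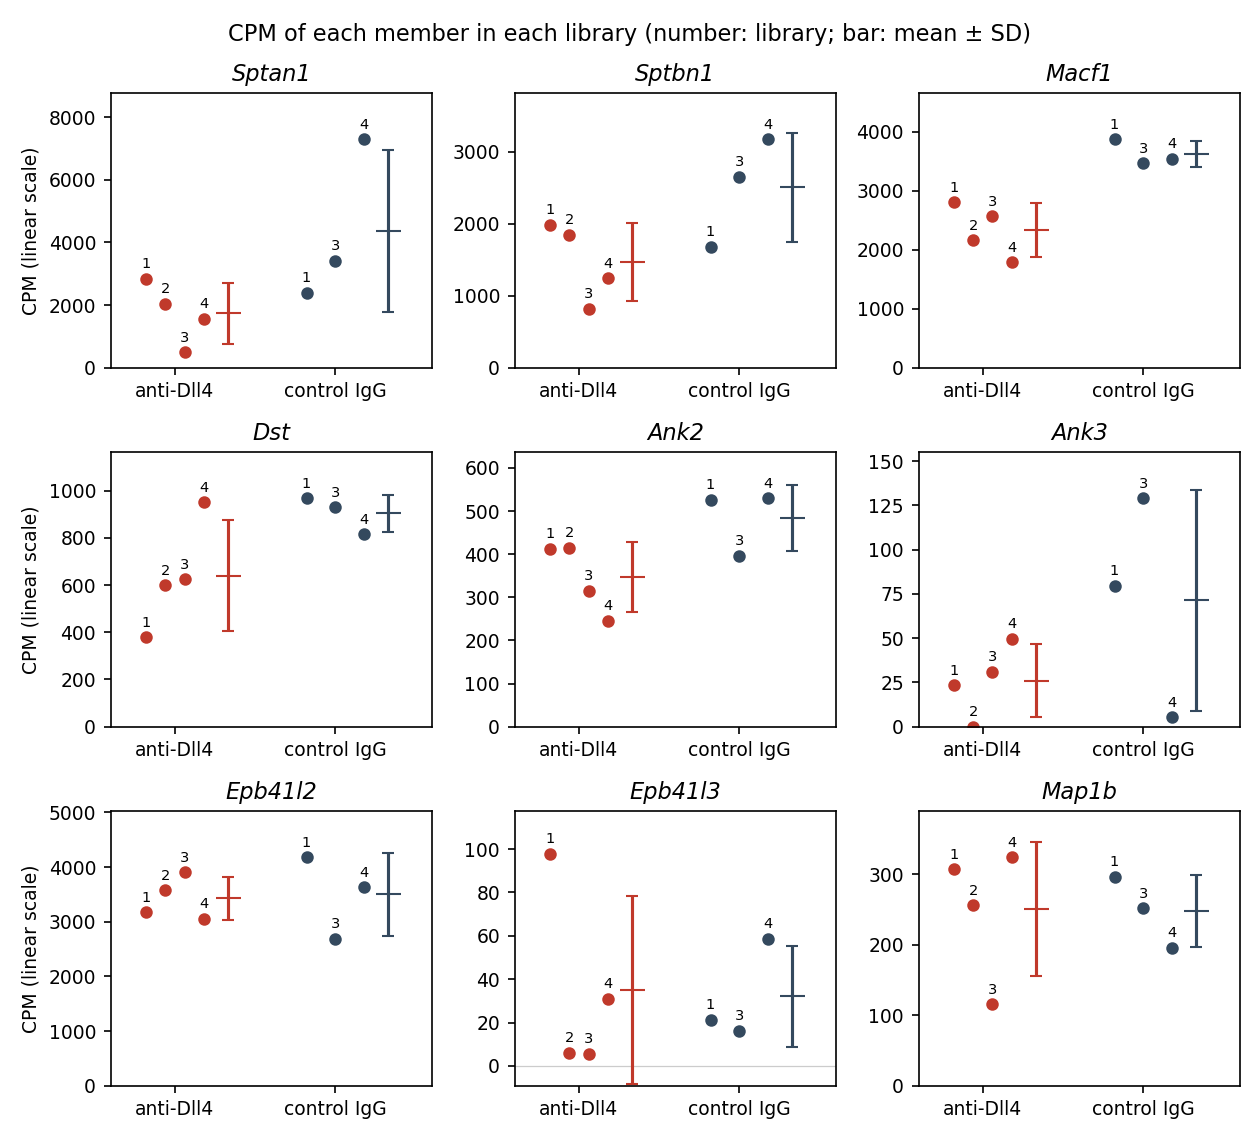
Points give the CPM (linear axis) of each of the 9 members in each anti-Dll4 library (red, numbered 1 to 4) and control IgG library (dark, numbered 1, 3 and 4), with bars for mean ± SD. Macf1 is the panel in which the groups are apart, while Epb41l2 and Map1b have means of about the same size in both groups.

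Ank2 encodes ankyrin-B, which holds ion pumps and exchangers at the membrane. It had 413, 415, 315 and 246 CPM in anti-Dll4 libraries, against 526, 396 and 529.8 CPM in control libraries. Control IgG 3 lay below anti-Dll4 1 and 2, so the groups overlap by that library. The log2 change was -0.50 ± 0.37 (SE), with means of 347 ± 82.2 CPM (SD, n = 4) in anti-Dll4 and 484 ± 76.3 CPM (SD, n = 3) in control libraries. With the rod marker covariate the change was -0.31 ± 0.48 (SE). Over the 7 libraries the Pearson r of Ank2 was 0.66 with the rod, 0.95 with the bipolar and 0.74 with the ganglion cell marker mean.

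Ank3, which encodes ankyrin-G, had few reads. They numbered 35, 0, 55 and 88 in anti-Dll4 libraries, against 135, 175 and 8 in control libraries. The libraries at the bottom were anti-Dll4 2 and control IgG 4, so each group held a library with almost none. Where a library has 0 reads, a count of up to 3 reads (1.83 CPM in anti-Dll4 2) is allowed. The log2 change of -1.51 ± 1.58 (SE) turned to -0.24 without anti-Dll4 2 and -2.86 without control IgG 4. It is not distinguishable from the spread between libraries.

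Of the band 4.1 proteins, Epb41l2 encodes 4.1G, the broadly expressed form. It had 3175, 3575, 3905 and 3056 CPM in anti-Dll4 libraries, against 4181, 2686 and 3631 CPM in control libraries. The lowest and the highest libraries were both control libraries, and the anti-Dll4 libraries lay within their range. The log2 change was -0.013 ± 0.20 (SE), a difference smaller than its error, which does not show that the levels are the same. Its sign was above 0 in 4 of the 7 fits that left out a library.

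Epb41l3, which encodes 4.1B, a form of neurons and glia, had 146, 10, 10 and 55 reads in anti-Dll4 libraries, against 36, 22 and 90 reads in control libraries. The groups overlap throughout, and anti-Dll4 1 had the most reads of all. The mean CPM was 35.1 ± 43.4 (SD, n = 4) in anti-Dll4 and 32.0 ± 23.2 (SD, n = 3) in control libraries, although the log2 change was below 0 at -0.53 ± 1.38 (SE). The direction of Epb41l3 therefore depends on the scale.

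Map1b had 307, 256, 116 and 324 CPM in anti-Dll4 libraries, against 296, 251 and 196 CPM in control libraries. The anti-Dll4 libraries held both the lowest and the highest value. Its means were 251 ± 94.5 CPM (SD, n = 4) in anti-Dll4 and 248 ± 50.5 CPM (SD, n = 3) in control libraries, a log2 change of -0.067 ± 0.48 (SE). Without anti-Dll4 3, the library at 116 CPM, the change was 0.27, and with the rod marker covariate it was 0.77 ± 0.57 (SE).

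**Figure D3:**
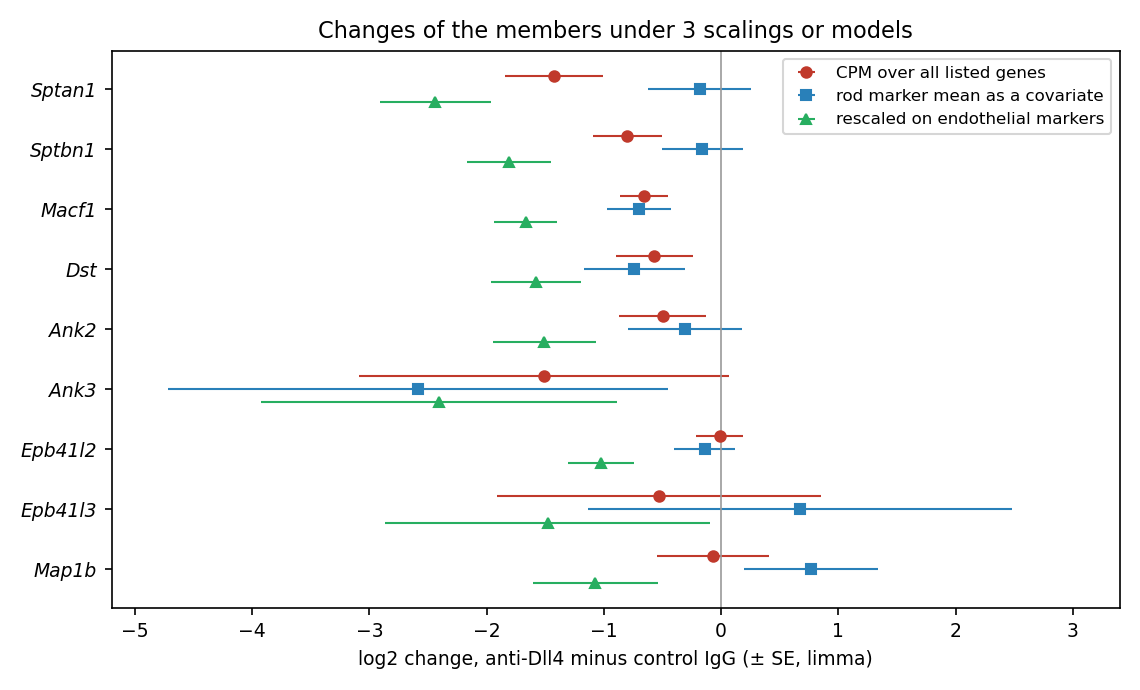
Points give the log2 change of each member, anti-Dll4 minus control IgG, and bars its limma SE, for CPM over all listed genes (red circles), with a covariate for the rod markers (blue squares) and with libraries rescaled on endothelial markers (green triangles). The covariate puts Sptan1 and Sptbn1 at -0.18 and -0.16, leaves Macf1 at -0.70, and the rescaling puts all 9 members below 0, from -2.44 to -1.03. The rod marker mean does not overlap between the groups, so the covariate and the treatment cannot be told apart.

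The other genes of these networks were taken from 9 lists (125 genes, of which 112 were in the table and 105 were tested). In limma 0 of the 105 passed the threshold, beside 0.119% of all genes tested. Of the 105, 13 had an unadjusted p under 0.05, 6 lower and 7 higher, and voom called 1, Dcx. These counts include genes that reached the filter, 1 CPM in 3 libraries, only with the group where they are high. Dcx, Epb41l1 and Tmod2 did so with the control libraries, and Flnc with the anti-Dll4 libraries. Nothing is read from the place of such genes in the counts. The unadjusted background was 3.41% lower and 3.68% higher, 7.09% in all. The groups did not overlap for 3 genes that were lower and 6 that were higher, beside 7.59% of all genes tested in either direction. Their changes were below 0 for 48 and above 0 for 57, with a median of 0.053, against -0.14 over all genes tested. None of the genes named below passed in limma. Rescaling on endothelial markers shifts the median of all genes by about -0.87, so the signs of the lists are given for CPM over all listed genes.

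Other spectrins and ankyrins had changes below 0 for 4 of 5, with a median of -0.35. Sptb, the erythroid beta spectrin that muscle and neurons also make, had 224, 223, 169 and 151 CPM in anti-Dll4 libraries, against 286, 220.5 and 799.6 CPM in control libraries. Control IgG 4, which was also highest for Sptan1 and Sptbn1, stood apart here (log2 change -0.96 ± 0.48 SE, adjusted p = 0.706, limma), and without it the change was -0.41 ± 0.56 (SE).

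Other band 4.1 and ERM proteins had changes below 0 for 5 of 8. Epb41l1, the neuronal form 4.1N, had 38, 0, 1 and 5 reads in anti-Dll4 libraries, against 22, 97 and 44 reads in control libraries (log2 change -3.13 ± 1.73 SE, adjusted p = 0.731, limma). Epb41l1 reached the filter only with the control libraries, so nothing is read from this p-value. Msn, which encodes moesin, the ERM protein of endothelial cells and leukocytes, ran the other way. It had 69.0, 75.2, 728 and 239 CPM in anti-Dll4 libraries, against 68.5, 12.5 and 22.2 CPM in control libraries, with groups that just do not overlap (log2 change 2.65 ± 0.87 SE, adjusted p = 0.432, limma). The change was 1.96 without anti-Dll4 3, 1.65 with rescaling on endothelial markers and 0.85 ± 1.03 (SE) with the rod marker covariate. Non-overlap upwards held for 3.84% of all genes tested.

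Proteins of the spectrin-actin junction had changes above 0 for 11 of 13, with a median of 0.69. Actb, cytoplasmic beta-actin, averaged 1673 ± 915 CPM (SD, n = 4) in anti-Dll4 and 839 ± 108 CPM (SD, n = 3) in control libraries (log2 change 0.83 ± 0.35 SE, adjusted p = 0.688, limma). It was 0.53 without anti-Dll4 3, -0.082 with the rod marker covariate and -0.18 with libraries rescaled on endothelial markers. Add1, which encodes alpha-adducin, a cap of actin ends that recruits spectrin, had a change below 0, with 36.2, 100.3, 15.9 and 14.1 CPM in anti-Dll4 libraries, against 94.4, 205 and 156 CPM in control libraries. Anti-Dll4 2 lay just above control IgG 1, and the other libraries were apart (log2 change -2.22 ± 0.87 SE, adjusted p = 0.638, limma). With the rod marker covariate it was -1.29 ± 1.12 (SE).

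Among the other plakins, nesprins and actin linkers, 5 of 12 had changes below 0 (median 0.071). Syne1, which encodes nesprin-1, a giant spectrin-repeat protein of the nuclear envelope, had 2281, 1090.5, 1043 and 1797 CPM in anti-Dll4 libraries, against 2619, 2264 and 2015 CPM in control libraries. Only anti-Dll4 1 reached into the control range (log2 change -0.64 ± 0.27 SE, adjusted p = 0.690, limma), and the change was -0.21 ± 0.34 (SE) with the rod marker covariate. Flnc, the muscle filamin, had 2, 14, 64 and 8 reads in anti-Dll4 libraries, against 1, 0 and 2 in control libraries, at or under the floor of 3 reads in each control library (adjusted p = 0.737, limma). Flnc reached the filter only with the anti-Dll4 libraries, so nothing is read from this p-value or from its non-overlap.

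Microtubule-associated proteins other than Map1b had changes below 0 for 11 of 22, with a median of 0.010. Dcx, which encodes doublecortin, a protein of young neurons, had 0 reads in each of the 4 anti-Dll4 libraries, against 28, 85 and 22 reads in control libraries. Set against a floor of 3 reads per library, its mean was at least 17.2-fold lower in anti-Dll4 libraries (adjusted p = 0.299 in limma and 0.0430 in voom). The control mean of 31.2 CPM rests on 16.5, 62.7 and 14.3 CPM in control IgG 1, 3 and 4. With 0 reads in each anti-Dll4 library, Dcx passed the filter only through the control libraries, so nothing is read from these p-values. The list median was also 0.010 with Dcx at that bound. Map1lc3a, an LC3 protein of autophagosomes, had a log2 change of 2.25 ± 1.09 (SE, adjusted p = 0.705, limma).

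Tubulins had changes above 0 for 7 of 10, with a median of 0.59. Tuba1b averaged 2012 ± 599 CPM (SD, n = 4) in anti-Dll4 and 1234 ± 309.6 CPM (SD, n = 3) in control libraries, a log2 change of 0.67 ± 0.28 (SE, adjusted p = 0.680, limma) that turned to -0.34 with rescaling on endothelial markers. Tubb4b had 258, 209, 499.6 and 528 CPM in anti-Dll4 libraries, against 109.8, 195 and 191 CPM in control libraries, with groups apart by a narrow margin (log2 change 1.11 ± 0.48 SE, adjusted p = 0.690, limma). With the rod marker covariate Tubb4b was at 0.46 and Tuba1b at 0.38, and rescaling on endothelial markers put Tubb4b at 0.099. Tubulin and actin genes have near-identical copies and pseudogenes, so shared reads leave their values uncertain.

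Membrane partners of ankyrins had changes below 0 for 10 of 14, with a median of -0.70. Atp1b2, a beta subunit of the sodium pump in glia and photoreceptors, averaged 383 ± 172 CPM (SD, n = 4) in anti-Dll4 and 736 ± 166 CPM (SD, n = 3) in control libraries (log2 change -1.03 ± 0.39 SE, adjusted p = 0.625, limma). With the rod marker covariate it was -0.21 ± 0.45 (SE). Rescaling on endothelial markers put Atp1b2 and Syne1 past the threshold, under a scaling in which 84 of the 86 genes past it, of 10899 tested, were lower.

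Calpains, proteases that cut alpha-II spectrin, had changes above 0 for 4 of 4, calpastatin included. Capns1, the small subunit of the calpains, had 78.3, 204, 36.8 and 50.8 CPM in anti-Dll4 libraries, against 5.31, 31.0 and 13.0 CPM in control libraries. Capn2 had 64.3, 54.4, 113 and 64.4 CPM in anti-Dll4 libraries, against 7.08, 42.8 and 20.2 CPM in control libraries. For both genes the groups did not overlap, as for 3.84% of all genes tested in the upward direction. Neither passed in limma (log2 changes 2.41 ± 1.08 and 1.88 ± 0.99 SE, adjusted p = 0.695 and 0.711). With the rod marker covariate the change was 3.28 ± 1.40 for Capns1 and 1.23 ± 1.29 for Capn2 (SE). With rescaling on endothelial markers it was 1.45 for Capns1 and 0.91 for Capn2.

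**Figure D4:**
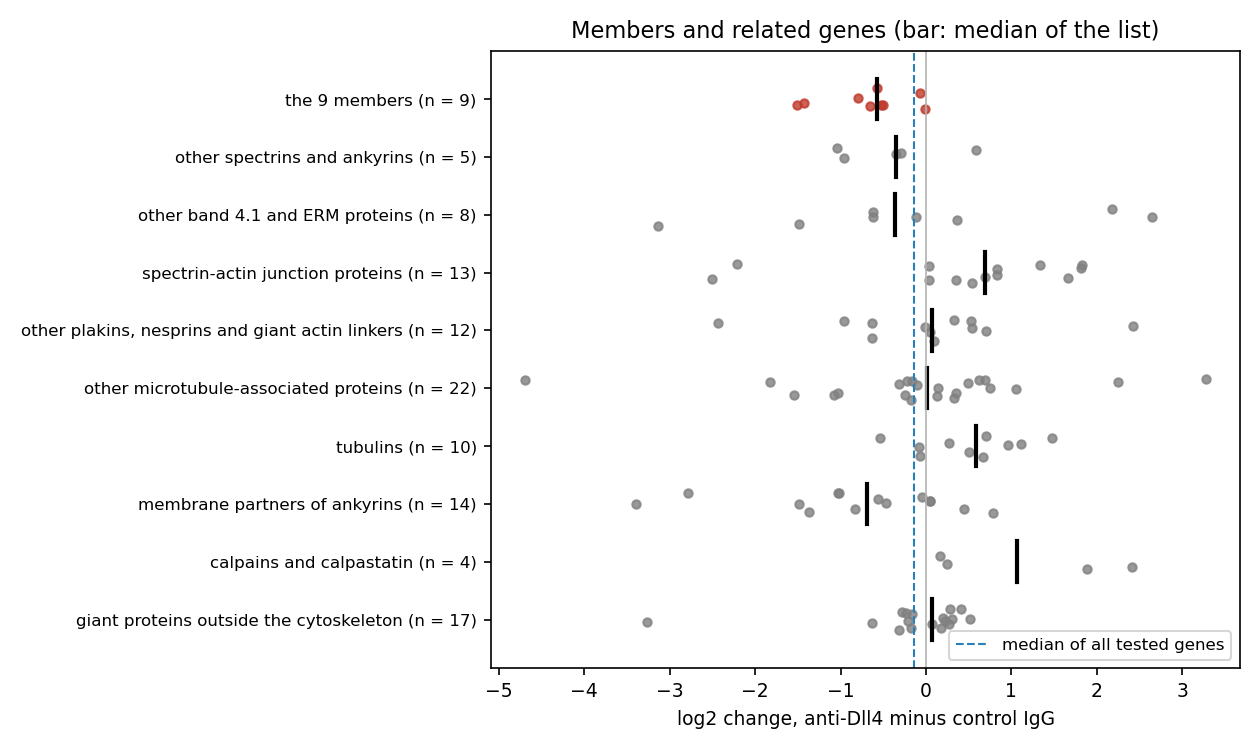
Points give the log2 change, anti-Dll4 minus control IgG, of each tested gene of the 9 members (red) and of the related lists (grey), bars the median of a list, and the dashed line the median of all tested genes (-0.14). The members' median is -0.57, that of ankyrin partners -0.70 and that of the spectrin-actin junction 0.69.

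Great size is part of what most of these proteins are known for, so their length is given as a description. The longest coding sequence in GENCODE M21 was 23151 nt for Dst, 22065 nt for Macf1, 11778 nt for Ank2 and 8612 nt for Ank3. It was 7494 nt for Sptan1, 7392 nt for Map1b and 7089 nt for Sptbn1, and 2964 and 2817 nt for Epb41l2 and Epb41l3. The members' median of 7494 nt stands beside 1410 nt for all tested genes with a length (10753, 98.7% of those tested). Genes under 1000 nt had a median change of 0.14, and 46.3% of the 3389 were below 0. Longer classes had medians of -0.22 from 1000 nt, -0.28 from 2000 nt, -0.20 from 4000 nt and -0.27 from 8000 nt, and 63.8% of the 141 genes in the longest class were below 0. Without the 4 members in it, that class had a median of -0.24 over 137 genes. Among genes with a mean log2(CPM + 1) of at least 5, the medians were 0.21 under 1000 nt and -0.20 from 1000 nt. They were -0.27 from 2000 nt, -0.13 from 4000 nt and -0.16 from 8000 nt. A list of giant proteins outside the cytoskeleton, Huwe1 and Birc6 among its members, had a median of 0.066 with 8 of 17 below 0. Its genes with the smallest p were Vps13b, a lipid transfer protein (log2 change -3.27 ± 1.46 SE, adjusted p = 0.695, limma), and Hectd4, a ubiquitin ligase (log2 change -0.63 ± 0.56 SE, adjusted p = 0.847, limma). Vps13b was at -0.96 ± 1.84 (SE) with the rod marker covariate, and Hectd4 at -0.13 ± 0.46 (SE) without anti-Dll4 2.

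**Figure D5:**
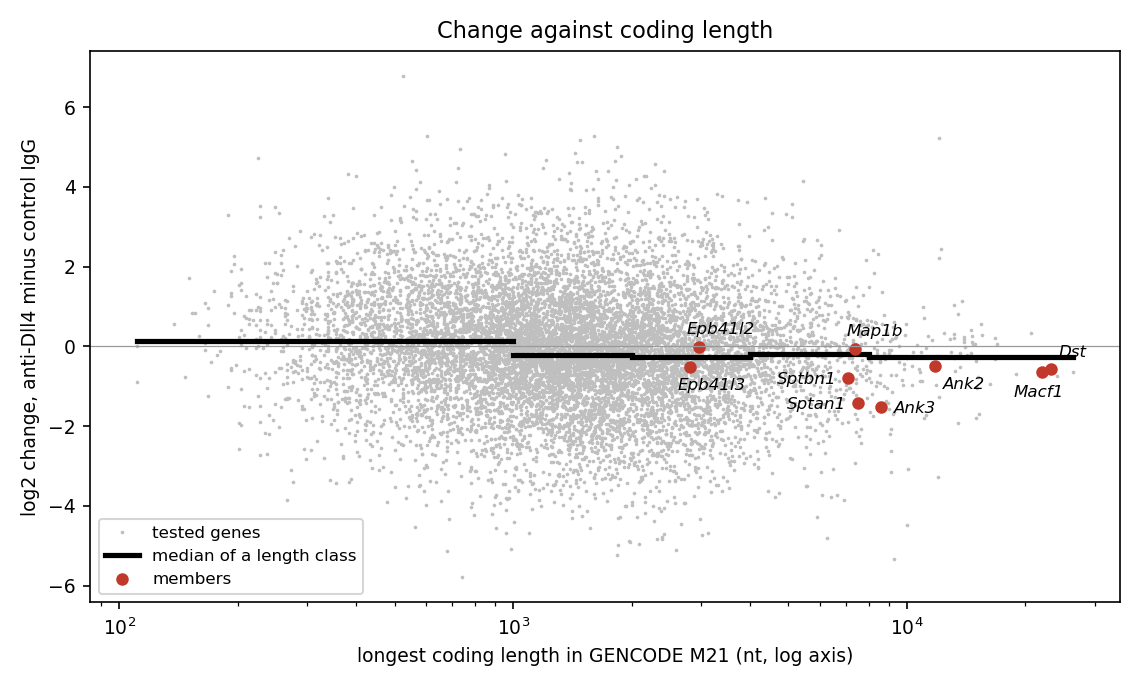
Points give the log2 change, anti-Dll4 minus control IgG, of each tested gene against its longest coding length (nt, log axis), with the 9 members in red and the median of each length class as a black line. The class under 1000 nt has a median of 0.14 and the longer classes medians from -0.28 to -0.20, with 7 of the 9 members at 7089 nt or more.

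The genes whose levels over the 7 libraries were most like the mean of the members were Syne1 (Pearson r = 0.98), Gon7 (0.97), B4galt3 (0.97), Myh10 (0.97) and Rbbp6 (0.95), out of 4285 genes with a mean log2(CPM + 1) of at least 5. These correlations rest on 7 libraries that also share the treatment group. Ank3 and Epb41l3, the members with few reads, had the widest spread between anti-Dll4 libraries (SD 2.58 and 1.87 log2 units) and so weigh most in that mean. Anti-Dll4 2 and 3 were low for Myh10 (2.45 and 5.66 CPM), which encodes non-muscle myosin heavy chain IIB, and for Gon7 (2.45 and 5.66 CPM).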

How the data were processed

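The submitters' processing notes name hg19, cutadapt, TopHat2 and bedtools without versions or roles, while the gene symbols are those of mouse. The annotation, counting rule and strand setting were not given in the sources used here. The authors deposited log10 values, log10(CPM + 1), for 12756 genes in 7 libraries. Turned back, 100% of the values were whole multiples of 1 read (tolerance 1e-06). The control column numbered 1 matches no control title (the title left over carries 15) and was used as a control library without a number of its own.

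A gene was fitted where 3 or more libraries reached 1 CPM, as log2(CPM + 1) with limma 3.58.1 in R 4.3.3 (antibody as the only term, mean-variance trend, two-sided, Benjamini-Hochberg over 10899 genes). The fit was tested on simulated data. Alternatives were other pseudocounts (0.25 and 4), filters, scalings, a rod marker covariate, voom, a replicate block and leaving out each library. Members, lists and tests were chosen with earlier results of these data known. Named related genes are those past the threshold or the 2 with the smallest p per list, and some of these are not reported here. Reads are not counted by molecule, so floors cover counting error only. Coding lengths are the longest per symbol in GENCODE M21.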

Additional observations from a re-analysis of the deposited data

Results flagged for a closer look

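In the group of 4 anti-Dll4 libraries, 2 of 28 sets of values had a library far from the others. For Tuba1b it was anti-Dll4 1, the lowest at 1134 CPM against 2126 to 2407 CPM in the others, with a gap of 0.835 of the whole range on the log2 scale (above Dixon's critical value for 4 samples). For Hectd4 it was anti-Dll4 2, the lowest at 53.8 CPM against 191 to 244 CPM in the others, with a gap of 0.836 of the range. Chance alone flags some groups of this size. None of the 9 members had such a library by this measure.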

How the results depend on the processing

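The mean change of the 9 members, -0.67, lay between -0.85 and -0.53 with a library left out in turn, and was -1.67 with libraries rescaled on endothelial markers, a scaling that shifted the median of all genes by -0.87. It was -0.37 with the rod marker covariate and -0.58 over the 7 members with at least 100 reads in every library, an alternative chosen after seeing the data. Of the 9 members, 7 to 9 had changes below 0 under the alternatives run. Epb41l2 turned to 0.034 under median-ratio scaling, to 0.15 under the replicate block, and ran from -0.19 to 0.13 with a library left out. Epb41l3 turned to 0.67 with the rod marker covariate and ran from -1.30 to 0.0082 with a library left out. Map1b turned to 0.77 with the covariate and ran from -0.23 to 0.27. Ank3 turned to 0.51 under the block. Actb turned to -0.18 under endothelial rescaling and -0.082 with the covariate, and Tuba1b to -0.34 under that rescaling. The 13 genes past the threshold became 31 with a mean CPM of at least 10 required, 0 without the trend, 86 (84 lower, 2 higher) under endothelial rescaling, 1 with the covariate, 38 (24 lower, 14 higher) in voom, and 3 to 22 with a library left out (3 without control IgG 1 or anti-Dll4 4, 6 without anti-Dll4 1 or 2, 22 without control IgG 3). Of the related genes, 0 passed in limma, 2 under endothelial rescaling and 1 in voom. Of the 9 members, 0 passed in limma, 3 under endothelial rescaling (Sptan1, Sptbn1 and Macf1) and 1 in voom (Macf1). The members were chosen with this comparison known, so nothing is read from their counts. The cause of these differences was not tested. Control and anti-Dll4 libraries share only the title numbers 3 and 4, which the labels do not call pairs. A replicate block on them gave 3 genes past the threshold, Sptan1 among them with a change of -2.50. Without a control library Dcx was below the filter and could not be fitted. Depth limits the genes named with a library of 10 or fewer reads: Ank3, Epb41l3, Epb41l1, Flnc, Dcx, Map1lc3a, Capns1, Vps13b, Gon7 and Myh10.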
